A study of Saccharomyces cerevisiae with 3 samples.

Results

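Hsp90 is an ATP-driven chaperone that acts late in protein folding, and the genes described here encode both Hsp90 proteins of the budding yeast Saccharomyces cerevisiae and 8 of the helpers, called co-chaperones, that load proteins onto Hsp90 or set the pace of its ATP cycle. The members were chosen by name: HSC82 and HSP82 (Hsp90 itself), STI1, CNS1 and CDC37 (loading of client proteins), CPR6 and CPR7 (peptidyl-prolyl isomerases), AHA1 and HCH1 (activators of the ATPase) and SBA1 (the p23 protein). They make up 10 of the 6256 genes with a probe on the arrays and 14 of 10263 gene spots, since HSP82, STI1, HCH1 and CDC37 were spotted 2 times and the other members once.

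RNA was compared between a strain with a deletion of HHO1, which encodes the linker histone Hho1p, and the wild type, with and without a heat shock. The samples were the hho1 deletion strain heated rapidly to 37 °C for 15 min, the same strain left at 25 °C, and wild-type cells heated in the same way, with 1 array of 2 colours each. Cells of the deletion strain are called hho1 cells here. Wild-type RNA from 25 °C, the common reference on every array, was the only control sample. All cultures grew in YPAD, a rich medium, to an optical density of 0.5; the sources used here do not name the strain background or the numbers of clones and cultures. The labels' growth field for the heated samples reads as growth at 37 °C, while their treatment field gives the 15 min shift.

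The reference was in Cy5 on both deletion arrays and in Cy3 on the wild-type array, and the deletion arrays shared a slide and a scan that the wild-type array did not. Strain at 37 °C can therefore not be told apart from dye orientation, slide and scan. HHO1 itself had log2 ratios of -4.26 ± 0.03 and -4.34 ± 0.16 (SD, 2 spots) in hho1 cells at 37 °C and at 25 °C, and of -0.34 ± 0.02 in heated wild-type cells, all over the wild type at 25 °C. The sources used here do not place the HHO1 probe inside or outside the deletion. With 1 array a group no difference below has a replicate check, no test was run, and an SD is always between spots of 1 array or array pair. Genes are called risen or fallen by a size rule: the mean log2 ratio is 1 or more in size, and no spot of the gene is below 0.58 in that direction.

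In yeast, HSC82 is known as the Hsp90 gene that is always on and HSP82 as the one that heat induces; their proteins are nearly identical, and the cell needs at least one of them. Client proteins arrive from Hsp70 through the adaptor Sti1, or, for kinases, through Cdc37. ATP binding closes the Hsp90 dimer, Aha1 speeds ATP hydrolysis and Sba1 slows it and holds the closed form. Many genes of this machinery are targets of the heat shock transcription factor Hsf1, itself a protein that chaperones bind.

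Every member was measurable in every sample, with 14 of 14 spots well above background in both channels of each array and no spot saturated. The scanner software flagged 2 member spots as outliers for uneven brightness, both on the wild-type array: the only HSC82 spot and 1 of the 2 HCH1 spots. Flagged spots were left out, so HSC82 has no value in comparisons that use the wild-type array except where its flagged spot is named. Bright spots were scaled up by the software from a second, low-gain scan. This applied to 7 of 14 member spots in the heated hho1 channel, to 8 of 14 in the heated wild-type channel and to all spots of HSC82, HSP82, STI1, AHA1 and CPR6 in both. In the reference channel it applied to 3 of 14 spots on each deletion array (HSC82, CPR6 and SBA1) and to 0 of 14 on the wild-type array. In hho1 cells at 25 °C it applied to 1 of 14, the HSC82 spot. The part of this scaling in the ratios was not tested.

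Heat changed most of the Hsp90 system in wild-type cells, and the members went in different directions. Of 9 members with a value 5 rose (HSP82, CPR6, STI1, AHA1 and HCH1), 1 fell (CNS1) and 3 stayed below the size rule (SBA1, CDC37 and CPR7). Over all 5974 genes, 11.6 percent rose and 16.4 percent fell. The median log2 ratio of the 9 members was 2.12, and that of all genes was 0.00. In hho1 cells the heat response, taken as 37 °C minus 25 °C, had 7 of 10 members risen and 1 fallen, where 11.5 percent of 5918 genes rose and 15.8 percent fell. The risen members were the same 5 with HSC82 and SBA1, and CNS1 again fell. The median of the 10 members was 1.98, and that of all genes was 0.00. This median includes HSC82 and the wild-type one does not, so they are not compared. Among the 9 members other than HSC82, HCH1 stood in the middle in both strains, at 2.16 in hho1 cells and 2.12 in wild-type cells. The wild-type response is set directly against wild-type RNA from 25 °C on 1 array, whereas the hho1 response is a difference between 2 arrays. Where their readings of that reference differ, the difference stays in the hho1 response. It had an SD of 0.22 on the log2 scale over 5918 genes. A ratio is relative to all labelled RNA of a culture, so fewer expressing cells and less RNA per cell cannot be told apart.

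**Figure D1:**
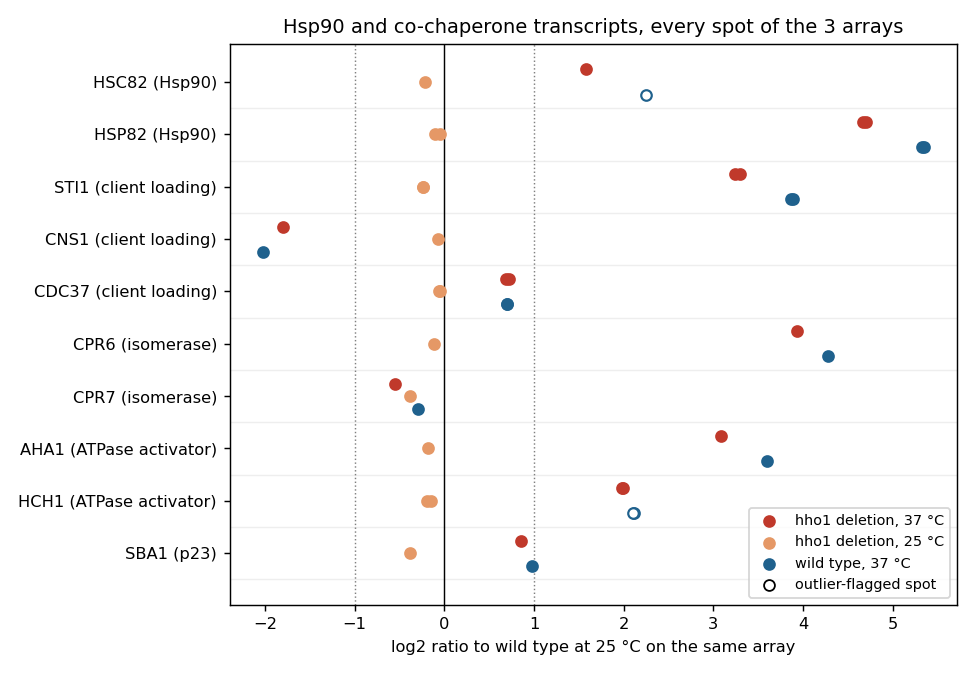
Log2 ratio of every member spot to the wild type at 25 °C on the same array (horizontal axis) for each gene (vertical axis), with 1 colour for each array, open circles for outlier-flagged spots and dotted lines at -1 and 1. The spots of both heated samples lie far to the right for HSP82, CPR6, STI1 and AHA1 and to the left for CNS1, while all spots of the deletion strain at 25 °C lie between -0.38 and -0.05.

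HSP82 (YPL240C), the heat-inducible Hsp90 gene, had the largest response of the set. Its normalised signal, the mean of its spots in a single channel, was 185838 in heated hho1 cells and 5151 in hho1 cells at 25 °C. It was 164197 in heated wild-type cells, against 7224, 5432 and 4064 in the 3 channels of wild-type RNA from 25 °C. Both heated samples thus stood above all 4 unheated channels by more than 20-fold, and the 3 reference channels differed among themselves by less than 2-fold. The share of all genes whose heated and unheated channels lie apart was not counted, here or for any member below. The log2 ratio of 37 °C over 25 °C was 4.76 ± 0.02 in hho1 cells, a 27.1-fold difference, and 5.34 ± 0.02 in wild-type cells, a 40.4-fold difference (SD, 2 spots). Over the ways of processing it ranged from 4.14 to 5.17 in hho1 cells and from 4.71 to 5.64 in wild-type cells, and in a same-dye comparison, which sets channels of like dye on different arrays against each other, the order of the strains turned, with 5.17 in hho1 cells and 4.71 in wild-type cells. HSP82 ranked 25th of 5918 genes by its rise in hho1 cells and 16th of 5974 in wild-type cells.

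HSC82 (YMR186W), the Hsp90 gene known as constitutive, rose less. Its signal was 154898 in heated hho1 cells and 36181 in hho1 cells at 25 °C, and the unflagged reference channels were at 51944 and 41972. The flagged spot had 135819 in heated wild-type cells and 28576 in the reference. The hho1 log2 heat response was 1.79, or 3.46-fold, from 1 spot. It was smaller, at 1.21, in the authors' deposited table and at 1.10 with median centring in place of loess. The flagged spot of the wild-type array gave 2.25, and the same spot was at 2.15 in the authors' deposited table. From the scanner's own processed signals it was at 2.06. HSP82 exceeded HSC82 in heat response by 2.97 on the log2 scale in hho1 cells, and by 3.09 in wild-type cells with the flagged spot. Probe sequences were not used here, and probes of genes this alike may read both; how much HSP82 RNA the HSC82 spot reads was not tested.

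Among the loading factors STI1 rose, CDC37 moved little and CNS1 fell. STI1 (YOR027W), the adaptor that bridges Hsp70 and Hsp90, had a signal of 59202 in heated hho1 cells and 4370 in hho1 cells at 25 °C. In wild-type cells its signal was 59538 after heat, against 6150, 5143 and 4055 in the reference channels. Both heated signals were nearly the same and each was more than 9-fold above every unheated one. The log2 heat response was 3.50 ± 0.04 in hho1 cells and 3.88 ± 0.02 in wild-type cells.

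CNS1 (YBR155W), an essential adaptor that, like Sti1, binds Hsp90 through tetratricopeptide repeats, was the only member that fell. Its signal was 445 in heated hho1 cells and 1483 in hho1 cells at 25 °C, and 346 in heated wild-type cells, against 1554, 1555 and 1406 in the reference channels. The 4 unheated channels lay close together and well above both heated ones. CNS1 fell by 1.73 on the log2 scale in hho1 cells, and by 2.02 in wild-type cells. Its level after heat was thus 3.33-fold lower in hho1 cells and 4.07-fold lower in wild-type cells. CNS1 ranked 518th of 5918 genes from the bottom in hho1 cells and 448th of 5974 in wild-type cells.

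CDC37 (YDR168W), which brings kinases to Hsp90, had a signal of 2586 in heated hho1 cells and 1542 in hho1 cells at 25 °C, and of 2348 in heated wild-type cells, against 1584, 1599 and 1448 in the reference channels. The heated signals were higher than the unheated ones by little. Without the share of all genes whose channels lie apart, this order does not set CDC37 apart from them. The log2 heat response was 0.76 ± 0.02 in hho1 cells and 0.70 ± 0.00 in wild-type cells, below the size rule in both strains.

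The pair of isomerase genes split apart under heat. CPR6 (YLR216C) had a signal of 221542 in heated hho1 cells and 14691 in hho1 cells at 25 °C, and 169128 in heated wild-type cells, against 14501, 15910 and 8709 in the reference channels. CPR7 (YJR032W), a related cyclophilin that also binds Hsp90, had 554 in heated hho1 cells and 825 in hho1 cells at 25 °C. Its heated wild-type signal was 658, against 809, 1075 and 808 in the reference channels. CPR6 rose in both strains. The heated CPR7 signals were lower than the unheated ones by little, and this order does not set CPR7 apart from all genes, for which it was not counted.

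The log2 heat response of CPR6 was 4.05 in hho1 cells and 4.28 in wild-type cells, with ranges over the ways of processing of 3.40 to 4.16 in hho1 cells and 3.48 to 4.61 in wild-type cells. That of CPR7 was -0.17 in hho1 cells and -0.30 in wild-type cells, below the size rule. The gap between CPR6 and CPR7 was 4.21 in hho1 cells and 4.58 in wild-type cells, wider than that between HSP82 and HSC82. The reference spread of CPR7 was of the size of its response: its wild-type 25 °C signal in Cy5 was lower by 0.41 on the log2 scale on the array of the heated deletion strain than on that of the unheated one. Taken between Cy3 channels alone, without the reference, the CPR7 response of hho1 cells was -0.57.

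Both ATPase activators rose, AHA1 more than HCH1. AHA1 (YDR214W) had a signal of 65841 in heated hho1 cells and 5740 in hho1 cells at 25 °C, and 67299 in heated wild-type cells, against 7790, 6510 and 5577 in the reference channels. HCH1 (YNL281W), a shorter relative of Aha1, had 7221 in heated hho1 cells and 1689 in hho1 cells at 25 °C. In heated wild-type cells HCH1 was at 9095, against 1820, 1904 and 2093 in the reference channels. The heated channels of both genes lay clear of all unheated ones.

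The log2 heat response of AHA1 was 3.26 in hho1 cells and 3.59 in wild-type cells, and that of HCH1 was 2.16 ± 0.03 in hho1 cells and 2.12, from 1 spot, in wild-type cells. The flagged HCH1 spot in wild-type cells gave 2.10. SBA1 (YKL117W), the p23 gene, had 39270 in heated hho1 cells and 17545 in hho1 cells at 25 °C, and 39229 in heated wild-type cells, against 21748, 22783 and 19875 in the reference channels. SBA1 stood near the size rule, at 1.23 in hho1 cells and 0.98 in wild-type cells. Its place on either side of that rule does not show a difference between the strains, and in the authors' deposited table SBA1 was at 0.87 in hho1 cells and 0.82 in wild-type cells.

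**Figure D2:**
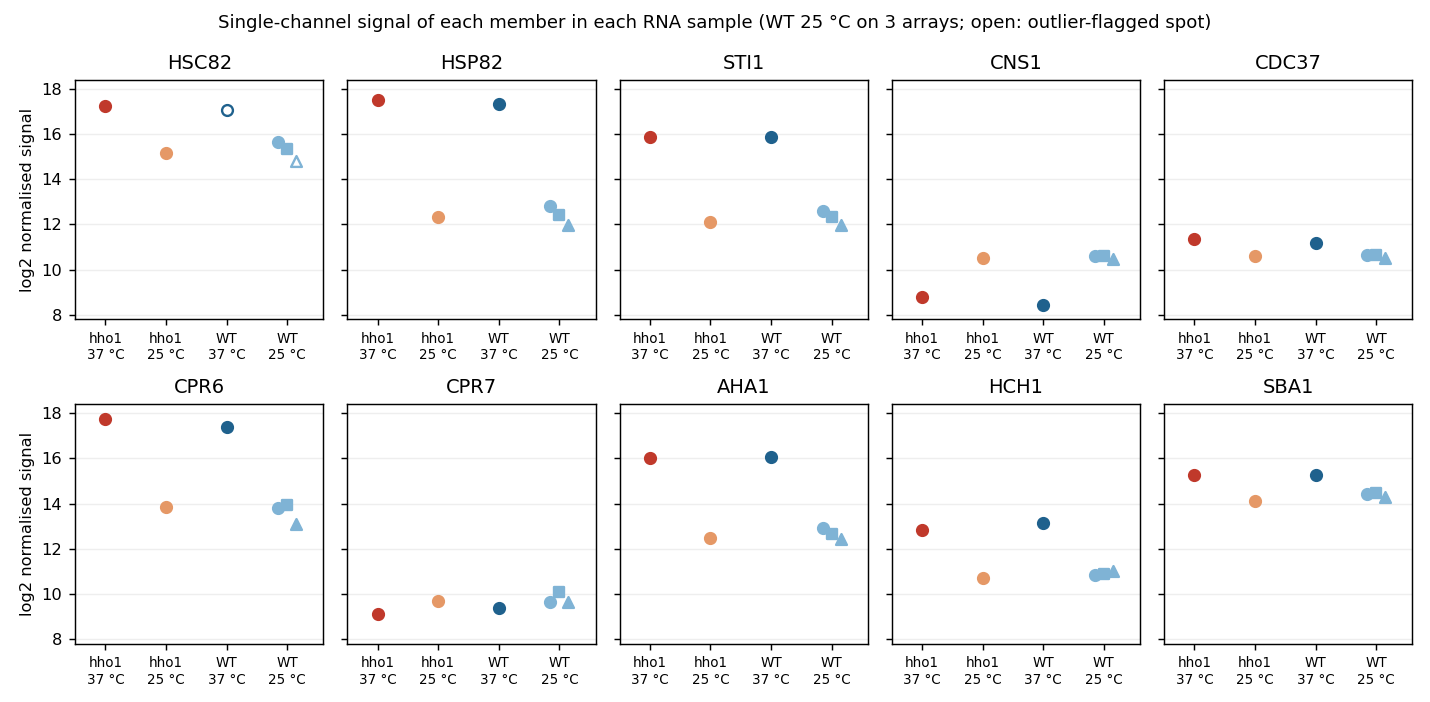
Normalised log2 signal (vertical axis, after normalisation within and between arrays) of each member in the hho1 deletion strain at 37 °C and 25 °C and in wild-type cells (WT) at 37 °C and 25 °C (horizontal axis); circle, square and triangle at WT 25 °C are the reference channels beside the heated deletion strain, the unheated deletion strain and the heated wild type. Levels of different genes come from different probes and are not comparable, and open symbols are outlier-flagged spots.

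The members ran in the same order by heat response in both strains, from HSP82 through CPR6, STI1, AHA1, HCH1, SBA1, CDC37 and CPR7 to CNS1, with HSC82 between HCH1 and SBA1 in hho1 cells. Its flagged spot would place HSC82 just above HCH1 in wild-type cells. Not all neighbours in that order were apart beyond the scanner software's own error of a ratio. In wild-type cells CPR6 and STI1 differed by 0.40 against a combined error of 0.60, STI1 and AHA1 by 0.28 against 0.56, and SBA1 and CDC37 by 0.28 against 0.31. The other neighbours were apart by more, from 0.99 between CDC37 and CPR7 to 1.73 between CPR7 and CNS1. In hho1 cells CPR6 and STI1, STI1 and AHA1, and HCH1 and HSC82 were closer than their combined error.

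**Figure D3:**
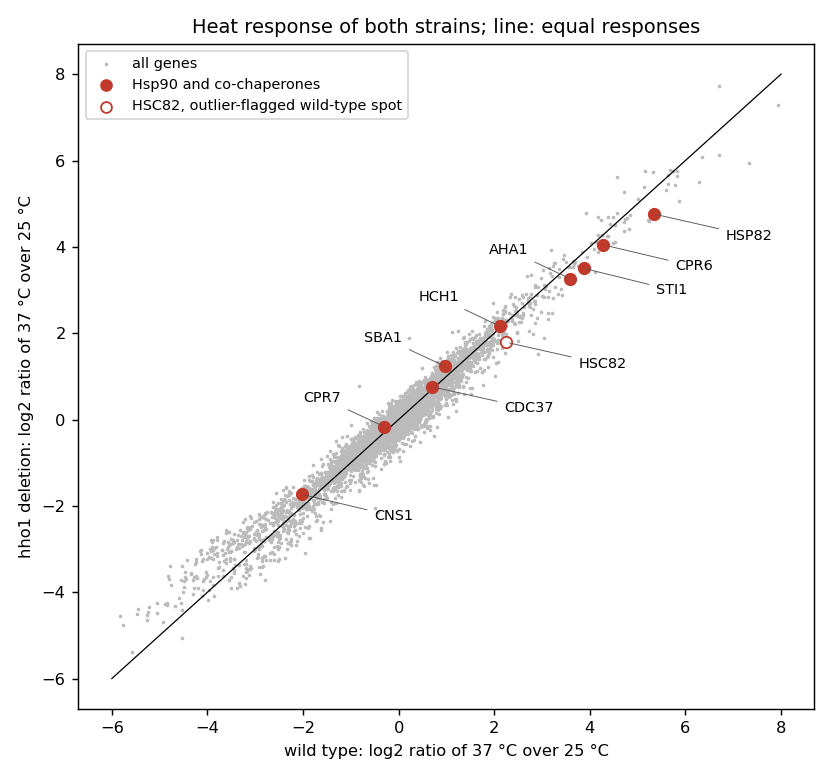
Heat response of the hho1 deletion strain (vertical axis, log2 ratio of 37 °C over 25 °C) against that of the wild type (horizontal axis, same unit), for all 5876 genes measured in both (grey) and the members (red; open for HSC82, whose wild-type value is an outlier-flagged spot). HSP82, CPR6, STI1 and AHA1 lie at the upper end and slightly below the line of equal responses, HCH1, CDC37 and CPR7 near it, and CNS1 and SBA1 slightly above; in the same-dye comparison the first 4 change sides.

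At 25 °C the members of hho1 cells lay close to the wild type in the analysis as reported. No member passed the size rule in either direction, where 0.0501 percent of 5984 genes were higher and 0.0167 percent lower. So few genes passed it that this count does not set the members apart from all genes. The log2 ratio of the deletion strain to the wild type was negative for 10 of 10 members, from -0.38 for CPR7 and SBA1 to -0.05 ± 0.01 for CDC37, and it was negative for 53.5 percent of all genes. HSP82 was at -0.08 ± 0.04, HSC82 at -0.21 and STI1 at -0.23 ± 0.00. The same wild-type RNA in the same dye had an SD of 0.22 between the deletion arrays (5918 genes), and HSP82 differed by 0.41 there. The shared sign did not hold when the deletion channel was set against the Cy3 reference of the wild-type array. Then 2 of 10 members and 58.4 percent of all genes were below 0, and HSP82 was at 0.34 and CPR6 at 0.75.

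At 37 °C again no member passed the size rule between the strains, where 0.187 percent of 5895 genes were higher and 0.407 percent lower in hho1 cells. With so few genes past the rule, this count too does not set the members apart from all genes. Of 9 members 7 lay below 0 in hho1 cells relative to the wild type, as did 48 percent of all genes. The member median was -0.25, against 0.01 for all genes. The lowest were HSP82 at -0.65 ± 0.04, STI1 at -0.61 ± 0.06 and AHA1 at -0.51. CPR6 was at -0.35, CPR7 at -0.25, HCH1 and SBA1 at -0.13, CDC37 at 0.01 ± 0.03 and CNS1 at 0.22. With its flagged spot HSC82 was at -0.67, close to HSP82.

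The direction of this strain difference turned with the way the channels were compared. In a same-dye comparison, each heated sample was set against the reference in its own dye on the other strain's arrays. HSP82 was then at 0.80, CPR6 at 1.19, STI1 at 0.46 and AHA1 at 0.32, each with the opposite sign. In that comparison 2 of 9 members were below 0, as were 55.3 percent of all genes. The wild-type reference itself differed for these genes: in Cy3 on the wild-type array it lay 0.62 lower than the mean of both Cy5 channels for HSP82, 0.80 lower for CPR6, 0.47 lower for STI1 and 0.35 lower for AHA1, where the SD over 5872 genes was 0.23. With median centring in place of loess HSP82 was at -1.76 and AHA1 at -1.51, while the median of all genes moved to -0.37. Then 5 of 9 members passed the size rule as lower, where 605 of 5895 genes were lower and 590 higher. HSP82 was at -0.95 in the authors' deposited table. The part of dye, slide and scan in the strain difference was not tested.

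**Figure D4:**
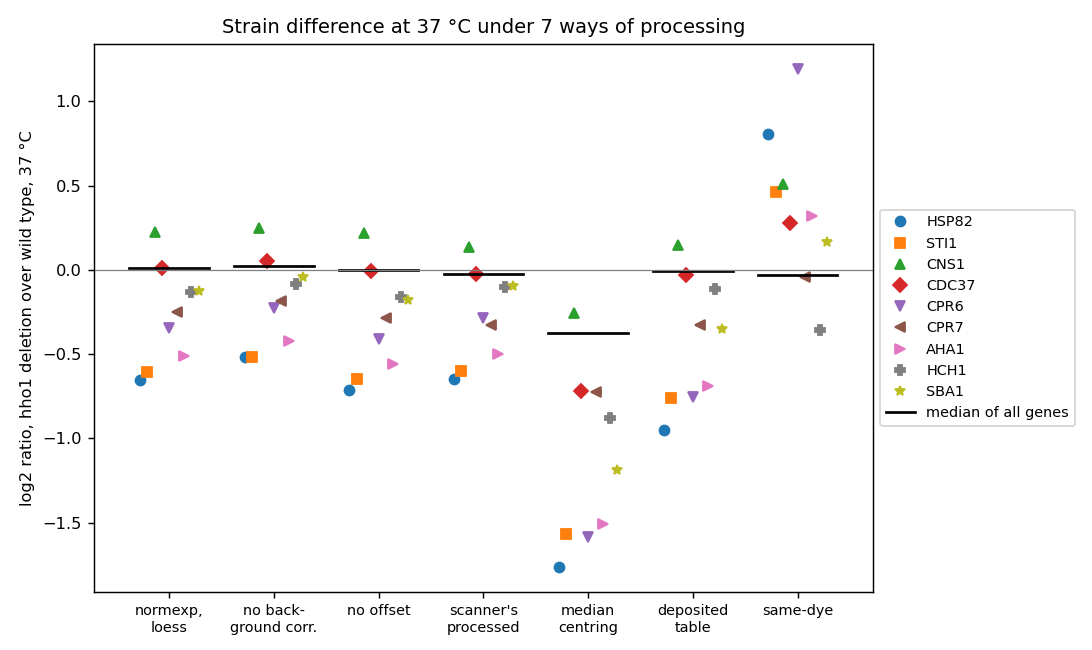
Log2 ratio of the hho1 deletion strain over the wild type at 37 °C (vertical axis) for 9 members under 7 ways of processing (horizontal axis), with a black bar for the median of all genes. HSP82, STI1 and AHA1 lie below 0 in 6 of them and above 0 in the same-dye comparison, where HSP82 reaches 0.80.

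The size rule separated the heat responses of the strains for no member. In the difference, hho1 cells minus wild type, 0 of 9 passed it, where 0.375 percent of 5872 genes were higher and 0.153 percent lower. That count is near the share of all genes and does not set the members apart. HSP82 was at -0.57 ± 0.00, STI1 at -0.37 ± 0.06, AHA1 at -0.33 and CPR6 at -0.23, and in the same-dye comparison all 4 changed sign, to 0.46, 0.36, 0.28 and 0.44. The remaining 5 members were above 0, from 0.06 for CDC37 and HCH1 to 0.25 for SBA1 and 0.29 for CNS1. With median centring all 5 were below 0, CNS1 at -0.02, but so were 77.3 percent of all genes, whose median was then at -0.34. In that setting 4 members passed the size rule as lower, as did 270 of 5872 genes. The median of the 9 members was 0.06 and that of all genes 0.04. Of 93 genes with a mean log2 heat response over both strains of at least 3, a group that holds 4 members and was set after the values were seen, 55 had a difference below 0, the median was -0.07 and the quartiles were -0.28 and 0.20. HSP82, STI1 and AHA1 lay under the lower quartile and CPR6 between the quartiles. The quartiles were taken in the analysis as reported only, so this placement does not cover the same-dye values.

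The Hsp70 machinery that passes clients to Hsp90 responded in the same direction as HSP82 and STI1. In hho1 cells 8 of 9 measured genes rose and 1 fell, with a median log2 heat response of 2.33. In wild-type cells 9 of 10 rose, none passed the rule downward, and the median was 3.34. Over all genes 11.5 percent rose and 15.8 percent fell in hho1 cells, and 11.6 percent rose and 16.4 percent fell in wild-type cells. The Hsp70 gene SSA4 was at 5.94 in hho1 cells and 7.33 in wild-type cells. The other genes with the largest responses were SSE2, of the Hsp110 family, at 3.87 in hho1 cells and 3.84 in wild-type cells, and the Hsp70 gene SSA3 at 3.53 in hho1 cells and 3.94 in wild-type cells. The J-domain protein gene SIS1 was at 3.82 in wild-type cells and had an outlier flag on the array of the heated deletion strain. It therefore enters the wild-type median only, and the medians of the strains are over different genes. The fallen gene was SNL1, at -1.14 in hho1 cells and -0.88 in wild-type cells, which encodes an Hsp70 cofactor of the endoplasmic reticulum membrane.

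Among 7 cofactors of Hsp90 outside the set none rose and 2 fell in each strain, beside 11.5 percent of all genes risen and 15.8 percent fallen in hho1 cells and 11.6 and 16.4 percent in wild-type cells. So short a list cannot be set apart from all genes by these counts. Its genes had log2 heat responses with a median of -0.31 in hho1 cells and -0.51 in wild-type cells. PPT1, whose product removes phosphate from Hsp90, fell by 3.29 on the log2 scale in hho1 cells and was at -3.66 ± 0.23 (SD, 2 spots) in wild-type cells. RVB1, an ATPase of the R2TP assembly complex, was at -1.03 in hho1 cells and at -1.47 in wild-type cells, past the rule in both. PIH1, of the same complex, stood highest, at 0.62 in hho1 cells and 0.98 in wild-type cells, below the size rule.

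Of 10 isomerase genes other than CPR6 and CPR7 none rose and 1 fell in hho1 cells, and 1 rose and 1 fell in wild-type cells. These counts are near the shares of all genes, 11.5 percent risen and 15.8 percent fallen in hho1 cells and 11.6 percent risen and 16.4 percent fallen in wild-type cells. The median was 0.01 in hho1 cells and 0.39 in wild-type cells. FPR4, which acts on histones in the nucleus, fell by 3.24 on the log2 scale in hho1 cells and was at -3.20 in wild-type cells. CPR1, the cytosolic cyclophilin A gene, was at 0.61 in hho1 cells and at 1.24 in wild-type cells.

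Among genes of 9 proteins known as Hsp90 clients 1 rose and none fell in hho1 cells, and 1 rose and 1 fell in wild-type cells, again near those shares of all genes. The median was 0.33 in hho1 cells and 0.45 in wild-type cells. The risen gene was SLT2, the kinase of the cell wall integrity pathway, at 1.49 in hho1 cells and 1.33 in wild-type cells. CNA1, a calcineurin subunit gene, was at -0.90 in hho1 cells and at -1.23 in wild-type cells. HSF1, the heat shock factor gene, was at 0.61 in hho1 cells and 0.74 in wild-type cells, below the rule.

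**Figure D5:**
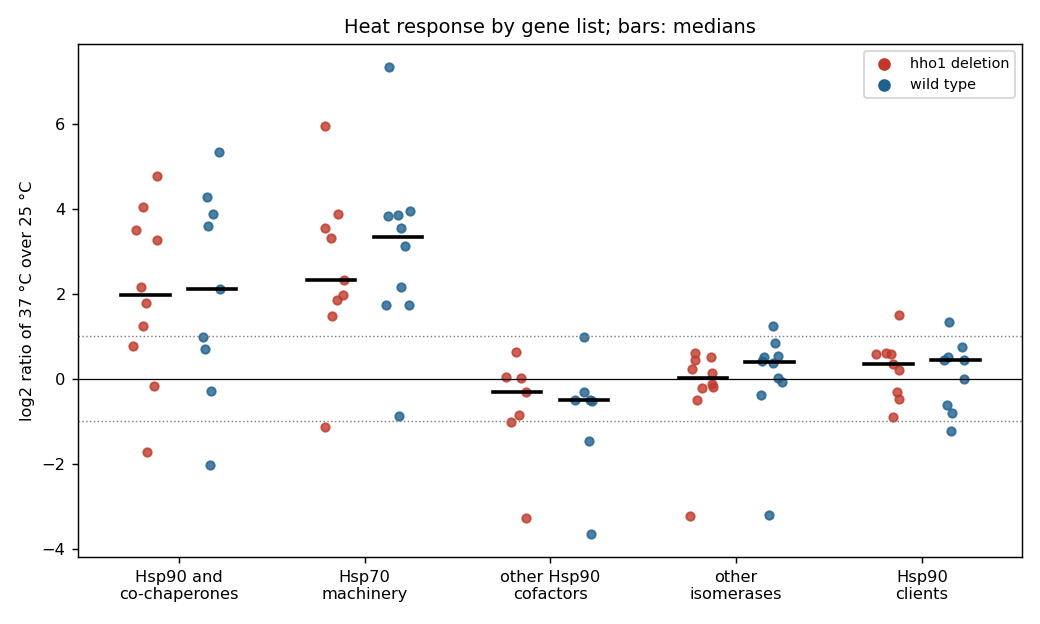
Log2 ratio of 37 °C over 25 °C (vertical axis) for each gene of 5 lists (horizontal axis), the hho1 deletion strain in red and the wild type in blue, with medians as black bars and dotted lines at -1 and 1. Medians lie at 1.98 (hho1, 10 genes) and 2.12 (wild type, 9 genes, without HSC82) for Hsp90 and its co-chaperones. For the Hsp70 machinery they lie at 2.33 (hho1, 9 genes, without SIS1) and 3.34 (wild type, 10 genes), and for the other lists between -0.51 and 0.45.

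The genes most like HSP82 over the 3 arrays, by Euclidean distance between log2 ratios among 5872 genes, were RGI1 at a distance of 0.14, BTN2 at 0.17, MSC1 at 0.42, DDR2 at 0.49 and TFS1 at 0.58. RGI1 had 4.61 in heated hho1 cells, -0.17 in hho1 cells at 25 °C and 5.26 in heated wild-type cells, against 4.69, -0.08 and 5.34 for HSP82. The genes most like HSC82, taken with its flagged spot, were MBF1 at 0.19, CUR1 at 0.25, HUA1 at 0.27, NCE103 at 0.28 and RRT1 at 0.29. No other member was among the nearest 5 of either Hsp90 gene. With 3 arrays, a distance describes these samples only.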

How the data were processed

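RNA of 3 samples was measured on 2-colour Agilent yeast arrays against wild-type RNA from 25 °C. Per the labels' protocols, samples were labelled after linear amplification, hho1 RNA in Cy3 and heated wild-type RNA in Cy5. Spot intensities in the deposited files are mean pixel brightness per channel from Agilent Feature Extraction, per the file headers. The log10 ratio and its error were computed by that software from detrended, dye-normalised signals, per the file headers; the error was converted to log2 and used only to compare neighbours. Log2 ratios of sample over reference fill the authors' deposited table; the submitters' processing notes name limma, its centring is unstated, and its medians were -0.050, -0.013 and -0.020 for the arrays of hho1 at 37 °C, hho1 at 25 °C and heated wild type.

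Intensities were processed with limma 3.58.1 in R 4.3.3: normexp with an offset of 50 (which draws dim ratios towards 0), loess within arrays with control and outlier-flagged spots at weight 0, and Aquantile for single channels. Spots without an outlier flag entered a comparison if either channel was well above background on each array involved, and spots were averaged per gene. Well above background were 90.0 to 94.7 percent of gene spots in sample channels and 90.2 to 95.1 percent in reference channels; the number of arrays limits precision. Calls follow the size rule, with no test. On a simulated wild-type heat response it called 50 of 50 genes at each simulated log2 size (-3, -1.5, 1.5 and 3). It called 0 of 5774 unchanged genes. No simulated size lay close to the threshold, and no dye effect that varies with brightness was simulated. These counts therefore check the code only and do not show how often the rule errs on these arrays. All members are named. A gene of another list is named only if its ratio was among the 4 largest in size in at least 1 comparison. Not every such gene is named, and some are given with values of a comparison in which they were not among the 4. Members and lists were chosen with earlier results of these data known. Symbols come from the RefSeq gene table by systematic name, which matched 5756 of 6256 genes and all members. Alternatives were other background corrections, the scanner's processed signals, median centring, the deposited table, other spot filters, the brightest spot, a same-dye comparison, a smaller size threshold and, chosen after seeing the data, flagged spots kept. The sources used here name no genome build for the probes; probe, promoter and protein sequences were not used here.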

Additional observations from a re-analysis of the deposited data

Results flagged for a closer look

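No member of the set had heat responses of opposite sign in hho1 and wild-type cells. Of the related genes, on lists of 7, 10, 10 and 9 genes, 4 did with all spots of a strain sharing 1 sign, and the differences were not tested. The kinase gene CDC28 had a log2 heat response of 0.33 in hho1 cells and -0.02 in wild-type cells. TOM70, a mitochondrial receptor gene listed here among the cofactors of Hsp90, had 0.05 in hho1 cells and -0.51 in wild-type cells. The FKBP-type isomerase gene FPR1 had -0.23 in hho1 cells and 0.41 in wild-type cells. SGT1, an adaptor of Hsp90, had 0.01 in hho1 cells and -0.32 in wild-type cells. FPR1 and SGT1 have 1 spot each and so meet the condition on spots by default. The values near 0 of SGT1, CDC28 and TOM70 are small beside the SD of 0.22 of the reference between the deletion arrays. The means of FPR3 also differed in sign, at -0.21 in hho1 cells and 0.02 ± 0.04 in wild-type cells, but its 2 wild-type spots did not share a sign. All of these values are below the size rule. With all spots of a strain sharing a sign, 481 of 5876 genes, 8.19 percent, had responses of opposite sign. At that share neither the lack of such a member nor the 4 related genes are set apart from all genes.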

How the results depend on the processing

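Each comparison was recomputed under every alternative, and no member called in the analysis as reported changed direction. CPR6, not called between the strains at 37 °C, was called lower there with median centring (-1.58) and higher in the same-dye comparison (1.19). In wild-type cells the number of members risen with heat was 5 to 7 and 1 fell throughout; in hho1 cells 6 to 8 rose and 1 fell. The counts that moved by more than 1.5 times were those between the strains. With median centring 5 members were lower in hho1 cells at 37 °C, beside 605 of 5895 genes, and 4 had a lower heat response, beside 270 of 5872 genes. With a size threshold of 0.58, 2 members were lower at 37 °C, beside 200 of 5895 genes. In the same-dye comparison 1, CPR6, was higher at 37 °C, beside 117 of 5895 genes. Member medians ranged from 1.54 to 2.10 for the hho1 heat response, from 2.02 to 2.51 for the wild-type one, from -0.37 to 0.08 for the deletion at 25 °C, from -1.19 to 0.32 for the strains at 37 °C and from -0.53 to 0.34 for the difference of responses. SBA1 crossed the size rule in wild-type cells without an offset (1.14) and with median centring (1.29), as did CDC37 with median centring (1.15), and SBA1 dropped under it in hho1 cells with median centring (0.76) and in the deposited table (0.87). Over all genes, higher and lower calls at 37 °C were 11 and 24 in the analysis as reported, 590 and 605 with median centring, 28 and 100 in the deposited table, 29 and 340 from the scanner's own processed signals, and 117 and 48 in the same-dye comparison. For the difference of responses the same counts were 22 and 9 as reported, 50 and 270 with median centring, 22 and 257 from the scanner's own signals, 6 and 63 in the authors' deposited table and 52 and 10 for same dyes. For the deletion at 25 °C they were 3 and 1 as reported, 559 and 6, 25 and 76, 6 and 16, and 0 and 17 in that order. Median centring gave 481 and 1029 for the hho1 heat response, against 682 and 934 as reported, and the wild-type one was at 692 and 978 as reported, 995 and 1013 with median centring and 1211 and 1097 from the scanner's signals. The median of all genes shifted by -0.38 at 37 °C, -0.37 in the difference and -0.18 in the hho1 heat response with median centring, and by 0.12 in the wild-type response from the scanner's signals. The causes were not tested. No paired analysis was possible because no group held more than 1 array, and for the same reason no array could be left out.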
